A study of Mus musculus with 2 samples.

Results

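The genes described here are the 9 that a fixed list names for the synthesis and use of arginine and creatine in the kidney: Gatm, Gamt, Ass1, Asl, Arg2, Agmat, Oat, Ddah1 and Ddah2. They were taken by gene symbol from a table of 45777 genes, and all 9 were found and expressed, meaning at least 1 CPM in either library. CPM here are read counts over a library size scaled by the TMM method, which sets the bulk of genes equal between libraries. The data were 2 RNA-seq libraries from whole mouse kidneys, 1 labelled Control and 1 labelled CKO, the latter from mice with a conditional knockout of Inmt limited to the proximal tubules. Both groups ate standard chow under a 12:12 h light cycle and received no treatment. The labels name neither the Cre driver nor the floxed allele, strain, age or sex, nor the number of mice in a library, and they give no genotype for the control mice. With 1 library per group, no difference below has a replicate check, a test or a p-value. Intervals are 95% and cover counting error only, so they compare these libraries and not the conditions.

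The kidney takes up citrulline from the blood and turns it into arginine, with Ass1 joining citrulline to aspartate and Asl splitting the product into arginine and fumarate. Arginine then feeds several routes. Gatm moves its amidino group to glycine to make guanidinoacetate, the first step of creatine synthesis, and Gamt methylates guanidinoacetate to creatine with S-adenosylmethionine, the same methyl donor that Inmt uses. Arg2, the mitochondrial arginase, splits arginine to urea and ornithine, and Oat turns ornithine into a precursor of glutamate and proline. The proximal tubule is the main site of arginine synthesis and of Gatm in the kidney. Ddah1 degrades asymmetric dimethylarginine (ADMA), an inhibitor of nitric oxide synthases.

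Counted reads came to 33618076 for the control and 38136616 for the CKO. Inmt, the targeted gene, had 17678 control reads against 5283 CKO reads, or 4.73-fold lower after scaling (4.59 to 4.88). The labelled tissue was checked on marker lists: all 12 proximal tubule markers, 6 thick limb and distal tubule markers, 6 collecting duct markers and 5 podocyte markers were expressed. The last 3 lists had 0, 1 and 0 genes at least 2-fold higher, none (0) lower, and median log2 ratios of 0.31, 0.21 and 0.06. Of 15129 expressed genes, 10.3% lay 2-fold or more above the control and 1.66% lay 2-fold or more below it, on the scale of log2(CPM + 0.5), where ratios of thinly covered genes come out too small. Higher genes were concentrated at low levels: 17.5% of genes under a mean of 20 CPM were at least 2-fold higher, against 3.20% from 20 to 200 CPM and 1.47% at 200 CPM or more. At 200 CPM or more, 6.56% were at least 2-fold lower.

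The 4 members with the most control reads were lower in the CKO library, and 3 of the 5 members with a role in breakdown (Arg2, Oat and Ddah2) were higher. The other 2 of those 5 were Ddah1, the lowest of all 9 genes, and Agmat. By sign alone, 4 of the 9 members were above 0 and 5 below, beside 7673 and 7456 of 15129 expressed genes. These directions are therefore close to the background. The share below 0 among genes of high level was not computed. Gatm, Ass1, Asl and Ddah1 had log2 ratios of CKO over control between -0.92 and -0.51, Oat, Arg2 and Ddah2 between 0.55 and 1.02, and Gamt and Agmat stayed near 0. At the 2-fold limit, 1 of 9 members (Ddah2) was higher and none (0) was lower, beside the background shares of 10.3% and 1.66%. The median over the 9 genes was -0.12, where that of all expressed genes was 0.01. A count of 1 in 9 is close to the background, so that what follows concerns the single genes and their balance.

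For 5 of these genes the 250 bases before the transcription start are shown, because 4 of them are the most abundant members or the Ddah pair whose ratios had opposite signs, and because Oat differed from the other abundant members. The sequences come from the RefSeq annotation of GRCm38.p6, read 5′ to 3′ in the direction of the gene, and capitals mark matches to a searched motif on either strand.
Gatm, chr2:122611278-122611527 (- strand): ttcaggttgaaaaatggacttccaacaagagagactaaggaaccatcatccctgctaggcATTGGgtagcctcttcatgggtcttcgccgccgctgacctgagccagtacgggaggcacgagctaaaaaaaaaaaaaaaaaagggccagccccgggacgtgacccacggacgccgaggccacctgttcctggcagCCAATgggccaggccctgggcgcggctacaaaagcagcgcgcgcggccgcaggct
Ass1, chr2:31470020-31470269 (+ strand): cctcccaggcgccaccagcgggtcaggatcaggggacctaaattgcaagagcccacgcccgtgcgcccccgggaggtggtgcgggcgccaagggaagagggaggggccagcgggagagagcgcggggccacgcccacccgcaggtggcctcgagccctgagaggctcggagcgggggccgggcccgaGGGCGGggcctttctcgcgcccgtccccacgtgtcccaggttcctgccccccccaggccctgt
Oat, chr7:132576399-132576648 (- strand): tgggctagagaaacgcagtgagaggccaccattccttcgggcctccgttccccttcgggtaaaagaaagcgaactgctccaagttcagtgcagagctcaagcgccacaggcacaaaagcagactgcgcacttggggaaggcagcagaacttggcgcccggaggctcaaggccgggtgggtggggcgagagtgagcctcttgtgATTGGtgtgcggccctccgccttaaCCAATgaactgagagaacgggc
Ddah1, chr3:145758442-145758691 (+ strand): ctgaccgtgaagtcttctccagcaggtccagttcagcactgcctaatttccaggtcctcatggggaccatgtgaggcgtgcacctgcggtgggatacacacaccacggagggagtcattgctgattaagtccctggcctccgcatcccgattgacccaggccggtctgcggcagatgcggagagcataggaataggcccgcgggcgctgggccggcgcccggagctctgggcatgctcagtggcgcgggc
Ddah2, chr17:35058785-35059034 (+ strand): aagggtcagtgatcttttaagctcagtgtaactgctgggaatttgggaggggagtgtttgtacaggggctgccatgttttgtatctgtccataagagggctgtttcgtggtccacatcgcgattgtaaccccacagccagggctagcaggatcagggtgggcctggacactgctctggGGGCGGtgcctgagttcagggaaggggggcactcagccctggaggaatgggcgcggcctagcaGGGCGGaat

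Of the 9 genes, 7 matched a RefSeq promoter window by NCBI gene ID, the exceptions being Asl and Arg2. Searched on both strands were the TATA box as TATAAA and the letters CCAAT of the box named for them. Also searched were the GC box as GGGCGG, the cAMP response element as TGACGTCA and a motif of the tubule factor HNF4A as CAAAGTCCA. The last were part of the HNF1 motif as GTTAAT, the half-site of the androgen receptor as AGAACA and an amino acid response motif of ATF4 as TTGCATCA. CCAAT, found in 33.8% of 32851 windows of the same length, was in Gatm at 55 bases before the start on the gene's strand and at 190 on the opposite strand. Oat held it at 22 bases on the gene's strand and at 47 on the opposite strand. GGGCGG, found in 32.7% of windows, was in Ass1 once at 63 bases, in Ddah2 at 72 and 9 bases, in Gamt 3 times on the opposite strand and in Agmat once. None of the 8 motifs was in the Ddah1 window. The other 6 were in none (0) of the members' windows. They occur in 0.384% (CAAAGTCCA) to 16.1% (AGAACA) of all windows. The windows differed in base composition too: Ass1 had 23 CpG dinucleotides and 75.6% G and C, Ddah1 17 and 64.0%, and Ddah2 7 and 58.0%, where the median window had 6 and 52.4%. Motif matches did not sort with direction, since CCAAT was in a gene that was lower (Gatm) and in one that was higher (Oat), and GGGCGG likewise in Ass1 and Ddah2.

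Levels between genes are compared by the authors' FPKM, which divides by gene length. In the control library Ass1 was at 962 FPKM (955 to 970), Gatm at 548 (543 to 553), Asl at 111 (108 to 113) and Ddah1 at 103 (101 to 105). Oat followed at 43.6 FPKM (42.2 to 45.1) and Gamt at 9.48 (8.53 to 10.5). Ddah2 at 4.61 FPKM (4.05 to 5.22) and Arg2 at 4.50 (3.96 to 5.11) did not differ beyond their counting intervals, and Agmat was lowest at 2.47 (2.07 to 2.93). By TPM, Ass1 ranked 34 among all genes in the control library and Gatm ranked 59.

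In the CKO library the order shifted in the middle. Ass1 (843 FPKM, 837 to 850), Gatm (424, 420 to 428) and Asl (93.3, 91.1 to 95.5) kept the first places in FPKM. Oat, at 79.7 FPKM (77.9 to 81.5), now stood above Ddah1, at 67.9 (66.6 to 69.2). Ddah2 at 12.1 FPKM (11.2 to 13.0), Gamt at 10.8 (9.85 to 11.8) and Arg2 at 10.8 (9.96 to 11.6) had overlapping intervals, and Agmat remained lowest at 3.29 (2.85 to 3.78). By TPM, Ass1 ranked 31 and Gatm 82 in this library.

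**Figure D1:**
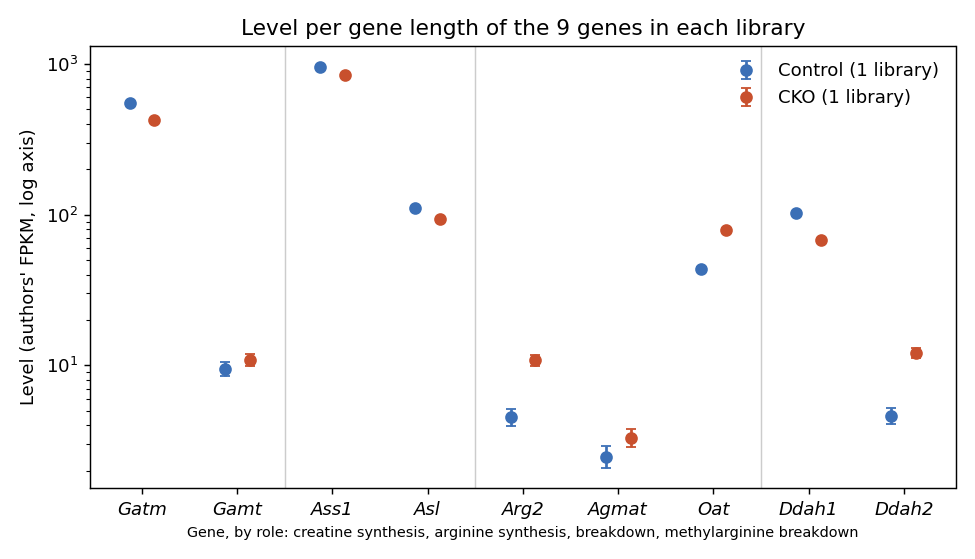
Level of the 9 genes in FPKM (log axis) in the control (blue) and CKO (orange) library, with 95% Poisson counting intervals and genes ordered by role. Ass1 and Gatm were the highest in both libraries, and Oat passed Ddah1 in the CKO library (79.7 against 67.9 FPKM).

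Gatm, the amidinotransferase that commits arginine to creatine synthesis, had 49240 control and 43324 CKO reads. That is 1635 CPM (1621 to 1650) against 1017 CPM (1008 to 1027), 1.61-fold lower (1.59 to 1.63). Its log2 ratio of -0.68 placed it 710 from the lowest among 15129 expressed genes. Gamt, the methyltransferase of the next step, had 360 and 466 reads, or 12.0 CPM (10.8 to 13.3) against 10.9 (9.97 to 12.0). Its ratio of 0.915 (0.796 to 1.05) included 1, and the sign of its log2 ratio of -0.12 was positive (0.18) on the scale of total counts. The creatine genes differed: Gatm reads per Gamt read went from 137 to 93.0, so that Gamt relative to Gatm was 1.47-fold higher (1.28 to 1.69, Woolf interval), a value that no library scaling can change. In GRCm38, Gatm (NCBI gene 67092) spans 122594473 to 122611277 of chromosome 2 and Gamt (14431) on chromosome 10 at 80258151 to 80261025, and neither overlaps another gene in GENCODE M21.

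Ass1 had nearly as many reads in the CKO library (59613) as in the control (59873), against a deeper CKO library. Scaled, it went from 1988 CPM (1973 to 2004) to 1400 CPM (1389 to 1411), 1.42-fold lower (1.40 to 1.44), with a log2 ratio of -0.51. Asl had 7420 and 7080 reads, or 246 CPM (241 to 252) against 166 (162 to 170), 1.48-fold lower (1.43 to 1.53), with a log2 ratio of -0.57. The successive enzymes of arginine synthesis kept their balance closely: Ass1 reads per Asl read went from 8.07 to 8.42, a change of 1.04-fold (1.01 to 1.08). Ass1 relative to Gatm, arginine supply against its use for creatine, was 1.13-fold higher (1.11 to 1.15) in the CKO library.

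Ass1 (NCBI gene 11898) lies on chromosome 2 at 31470270 to 31520670 and Asl (109900) on chromosome 5 at 130011258 to 130024381. Of the 50-base stretches in the Ass1 transcripts, 38.6% also occur in the gene model Gm5424, so reads could be split between them. Gm5424 had 1075 control and 994 CKO reads, and with these added to Ass1 its log2 ratio was -0.51 as before.

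Arg2 and Oat, consecutive steps from arginine to glutamate or proline, were both higher in the CKO library. Arg2 had 244 control and 662 CKO reads, or 8.10 CPM (7.12 to 9.19) against 15.5 (14.4 to 16.8), a ratio of 1.92 (1.65 to 2.23) and a log2 ratio of 0.90, short of the 2-fold limit. It passed the limit with total counts, at 1.20, so that 2 members were then higher and none (0) lower, beside shares of 15.7% and 0.67% of all genes on that scale. Oat had 3585 and 7440 reads, or 119 CPM (115 to 123) against 175 (171 to 179), a ratio of 1.47 (1.41 to 1.53) and a log2 ratio of 0.55. Arg2 relative to Oat was 1.31-fold higher (1.12 to 1.52).

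Set against the synthesis genes, the differences for Arg2 were larger and free of scaling. Ass1 reads per Arg2 read went from 245 to 90.0, so that Arg2 relative to Ass1 was 2.72-fold higher (2.35 to 3.16). Arg2 relative to Gatm, which draws on the same substrate, was 3.08-fold higher (2.66 to 3.57). In length-scaled terms Gatm still stood far above Arg2, with 39.4 FPKM of Gatm per FPKM of Arg2 in the CKO library against 122 in the control. Agmat, annotated as agmatinase and a relative of the arginases, had 133 and 202 reads, or 4.42 CPM (3.70 to 5.23) against 4.74 (4.11 to 5.45), and its ratio of 1.07 (0.859 to 1.35) included 1, whereas with total counts it was 1.34 (1.07 to 1.68). Arg2 relative to Agmat was 1.79-fold higher (1.37 to 2.32).

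Arg2 (NCBI gene 11847) lies on chromosome 12 at 79130788 to 79156301 and overlaps Vti1b and the antisense model Gm48780 on the other strand, and 21.2% of its 50-base stretches are shared with one or the other of them. The library kit keeps strand, but the strand setting of the counting is not given in the sources used here, so the split is uncertain. Vti1b had a log2 ratio of 0.01. Oat (18242) lies on chromosome 7 at 132557475 to 132576398 and overlaps the span of Fgfr2, without sharing any 50-base stretch of transcript. Agmat (75986) lies on chromosome 4 at 141746675 to 141759263.

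**Figure D2:**
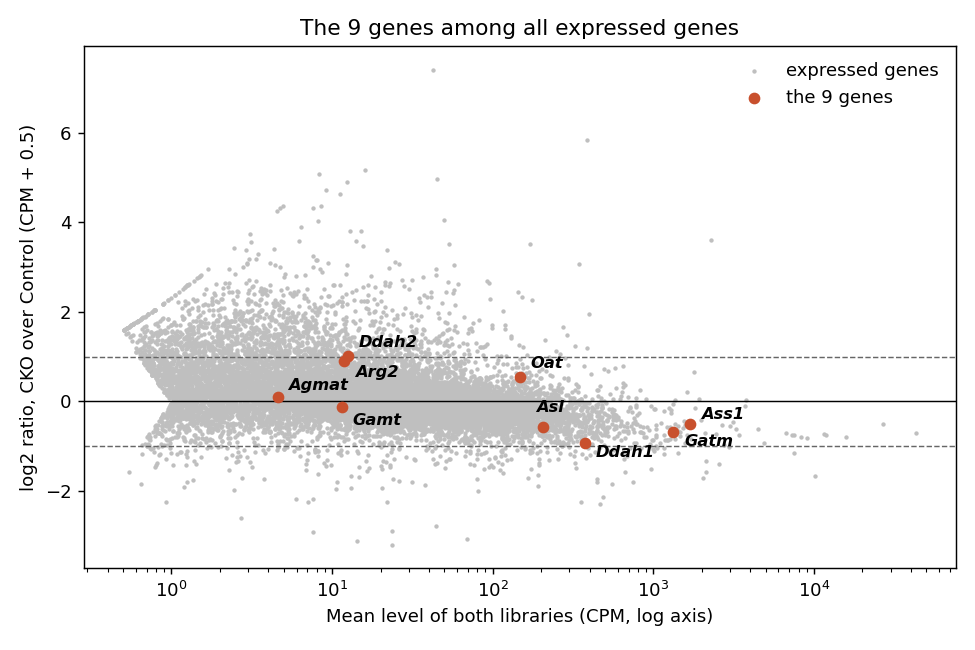
Log2 ratio of CKO over control against the mean level of both libraries in CPM (log axis) for all expressed genes (grey) and the 9 genes (orange), with dashed lines at 2-fold. Ddah2, at 1.02, lies just past the upper line, and Ass1, Gatm and Ddah1 lie below 0 at high level.

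The Ddah pair went opposite ways. Ddah1, which hydrolyses ADMA to citrulline and dimethylamine, had 14691 control and 10958 CKO reads, or 488 CPM (480 to 496) against 257 (253 to 262). It was 1.90-fold lower (1.85 to 1.94), and its log2 ratio of -0.92 was the lowest of the 9 genes and 318 from the lowest among all expressed genes. Ddah2, its paralog, whose activity towards ADMA is debated, had 246 and 725 reads, or 8.17 CPM (7.18 to 9.26) against 17.0 (15.8 to 18.3), a ratio of 2.08 (1.80 to 2.42). Its log2 ratio of 1.02 was the highest of the 9 and ranked 1514 from the highest among all expressed genes, and 17.5% of genes of its level range passed the same limit. With DESeq2 size factors the value was 0.998, just under the limit.

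Together these made the largest shift in balance among the 8 pairs compared. That follows from Ddah2 having the highest and Ddah1 the lowest ratio of the 9 genes, and is no further result. Ddah1 reads per Ddah2 read went from 59.7 to 15.1, so that Ddah2 relative to Ddah1 was 3.95-fold higher (3.41 to 4.58). In FPKM, Ddah1 stood 22.4 times above Ddah2 in the control and 5.63 times in the CKO library, so Ddah1 remained the more abundant paralog. Ddah1 (NCBI gene 69219) lies on chromosome 3 at 145758692 to 145894277, and a ribosomal protein pseudogene inside its span, Rpl36a-ps2, had 35 and 51 reads. Ddah2 (51793) lies on chromosome 17 at 35059035 to 35062099 and overlaps no other gene in GENCODE M21. The promoter windows printed above differ between these paralogs, with 17 CpG and no motif match in Ddah1 and 7 CpG and a pair of GGGCGG matches in Ddah2.

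**Figure D3:**
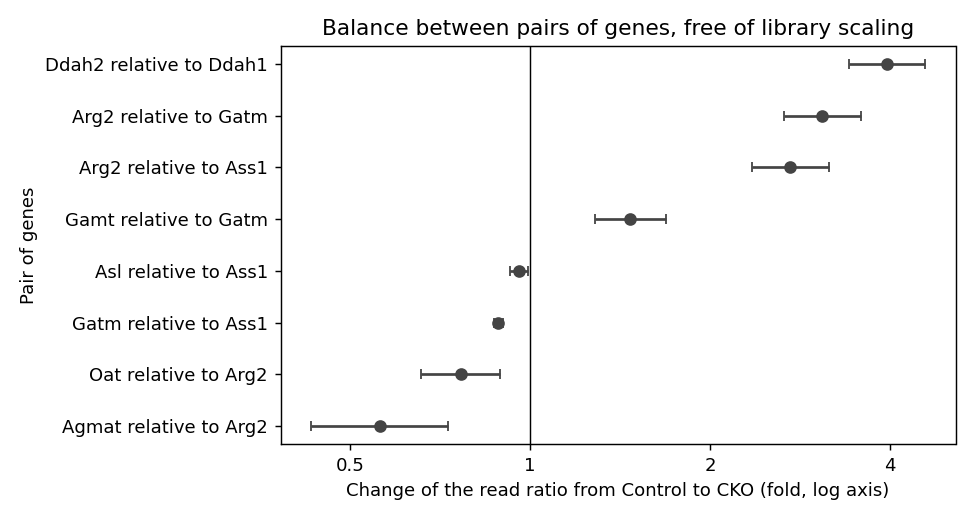
Change from control to CKO in the read ratio of 8 pairs of genes (log axis), with 95% Woolf counting intervals, where 1 means an unchanged balance. Ddah2 relative to Ddah1, the members with the highest and the lowest ratio, necessarily changed most (3.95-fold), and Asl relative to Ass1 lay near 1.

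Ordered by log2 ratio, the genes ran from Ddah2 through Arg2, Oat, Agmat, Gamt, Ass1, Asl and Gatm to Ddah1. Neighbours in this order were separated by more than counting error except Ddah2 and Arg2 (ratio of ratios 1.09, 0.884 to 1.33) and Agmat and Gamt (1.17, 0.906 to 1.52). Of all 36 pairs, 34 had an interval that excluded 1. That count depends on read number as well as on the size of a difference, since Ass1 and Asl were separated at a ratio of 1.04 (1.01 to 1.08). The share over other pairs of genes was not computed. Library scaling moved the 9 values together. With total counts the median of all expressed genes moved from 0.01 to 0.32, and Gatm became -0.37, Ass1 -0.19, Asl -0.25 and Ddah1 -0.60, against 0.87 for Oat and 1.32 for Ddah2. Taken relative to the median of all expressed genes, Gatm lay between -0.70 and -0.63 over the 7 scalings and units tried. Ddah1 lay between -0.94 and -0.86, Oat between 0.54 and 0.60, and Gamt between -0.14 and -0.08. A constant per library cancels in this difference, so the closeness of these values follows from how they were made and is no check of direction.

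**Figure D4:**
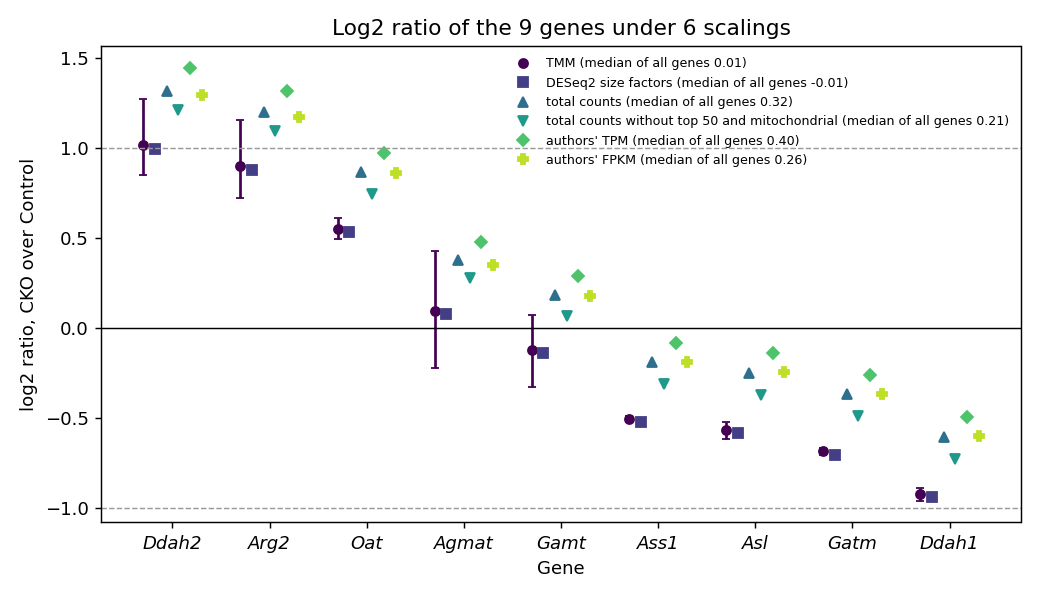
Log2 ratio of each of the 9 genes under 6 scalings or units, with the 95% counting interval of the plain TMM ratio as bars and dashed lines at 2-fold. The values of a gene shift together with the median of all genes given in the key, and Gamt is the gene whose sign turns.

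The other genes of the pathway came from fixed lists. For the supply of arginine, 3 of 7 genes were expressed, none (0) past 2-fold in either direction, with a median log2 ratio of -0.26. Slc25a15, the mitochondrial ornithine carrier, had 6303 and 5089 reads, 1.75-fold lower at -0.81, and the aspartate-glutamate carriers Slc25a13 and Slc25a12 were at -0.26 and -0.21. The other 4 are the liver urea cycle genes. Cps1 and Otc had 0 reads in both libraries. Taking 3 reads as the limit for a count of 0, in place of the exact interval, this allows up to 0.0996 CPM in the control. The same limit is 0.0705 CPM in the CKO library. Nags and Arg1, the cytosolic arginase, each had 0 control and 9 CKO reads, so Arg2 was the arginase that reached 1 CPM.

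For creatine handling, 4 of 6 genes were expressed and none (0) passed 2-fold, with a median of 0.22. The creatine transporter gene Slc6a8, the most abundant, was at 0.09, cytosolic brain-type creatine kinase Ckb at 0.35 and mitochondrial Ckmt1 at 0.59, on 1045 and 2233 reads. Slc16a12, a further creatine carrier, was at -0.02, and Gatm lay below all 4 at -0.68. Ckm and Ckmt2, the muscle kinases, had 0 reads in both libraries.

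Among 7 cationic amino acid transporters and their partner chains, 3 passed 2-fold upwards and none (0) downwards, and the median was 0.32. The 3 were the arginine carriers Slc7a1 (251 and 987 reads, 2.78-fold, 2.42 to 3.21), Slc7a2 (58 and 257 reads, 3.13-fold, 2.35 to 4.24) and Slc7a6 (108 and 445 reads, 2.91-fold, 2.36 to 3.63). Slc3a1, the apical partner chain and the most abundant of the list, was at -0.32. The higher carriers were at 8.34 CPM or less in the control, a range where 2-fold higher genes were common.

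For nitric oxide synthesis, none (0) of 6 genes passed 2-fold on the log2(CPM + 0.5) scale and the median was 0.06. Nos2, the inducible synthase, had 25 and 89 reads, a plain ratio of 2.52 (1.60 to 4.10) and a log2 ratio of 0.96 on that scale. Endothelial Nos3 was at 0.38 and Spr, which makes the tetrahydrobiopterin cofactor, at -0.41. Of 9 expressed genes for arginine methylation and ADMA breakdown, none (0) passed 2-fold and the median was -0.06. Agxt2, a mitochondrial aminotransferase that also degrades ADMA, was 1.44-fold lower at -0.52, the methyltransferase Prmt5 was at -0.37 and Prmt2 at 0.30. For the fates of ornithine and proline, 1 of 10 genes passed 2-fold upwards and 1 downwards, and the median was -0.19. Odc1, the ornithine decarboxylase that starts polyamine synthesis, was the lowest at -1.58, on 30001 and 14151 reads. Aldh18a1, which makes proline and ornithine precursors from glutamate, was 2.76-fold higher on 75 and 293 reads, and the antizyme inhibitor gene Azin2 was at 0.85. Oat (0.55) and Odc1 (-1.58), whose enzymes both use ornithine, lay on opposite sides of 0.

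Cell type markers also differed between the 2 libraries, and in bulk tissue fewer cells of a type and less RNA per cell cannot be told apart. Each gene has a single ratio here, so no joint variation of markers and members can be seen. Of 12 proximal tubule markers, 11 had log2 ratios below 0, where 7456 of all 15129 expressed genes did. The median of these markers was -0.65, and their summed level went from 34118 to 19014 CPM. Acsm2 at -1.16, Miox at -1.18 and Slc22a6 at -1.16 were among the lowest, and Slc5a12 stood at 0.26. Gatm, Ass1, Asl and Ddah1, at -0.92 to -0.51, lay within the range of these markers, as did Gamt at -0.12 and Agmat at 0.09. Oat, Arg2 and Ddah2 lay above that range. Of 7 markers of the S3 segment, the last part of the proximal tubule, 5 were at least 2-fold lower, led by Slc22a7 at -1.86. Their list had a median of -1.06 and a summed level of 8229 against 3757 CPM. Slc5a1 of the same list was higher, at 0.41 on 1613 and 3039 reads. None of these markers was at 0 reads, and their part in the values of the 9 genes was not tested.

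Of 10 macrophage markers, 9 passed 2-fold upwards, with a median of 2.74 and a summed level of 75.8 against 358 CPM. Lyz2 was at 4.05 and Csf1r at 0.86. All 8 tubular injury genes did so too, with a median of 3.57 and a summed level of 405 against 4773 CPM, including Lcn2 at 5.17 and Spp1 at 3.61. Endothelial markers, 8 of 8 expressed, had none (0) past 2-fold, a median of 0.03 and a summed level of 549 against 536 CPM. No macrophage, injury or endothelial marker was at 0 reads in either library. Genes with higher expression in male kidneys were lower in 6 of 6 cases by at least 2-fold (median -1.76, summed level 21639 against 6672 CPM). Of 5 female-biased genes, 4 were at least 2-fold higher (median 1.98, summed level 215 against 300.2 CPM). The exception was Cyp2a4, the most abundant of the 5, which was lower at -0.59 (176 against 117 CPM). Over all expressed genes, 10.3% were at least 2-fold higher and 1.66% at least 2-fold lower. These lists, and the proximal tubule and S3 lists above, were chosen with earlier results of these data known. Whether the shifts of these markers have a part in the values of Arg2, Ddah2, Oat or the lower members was not tested.

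**Figure D5:**
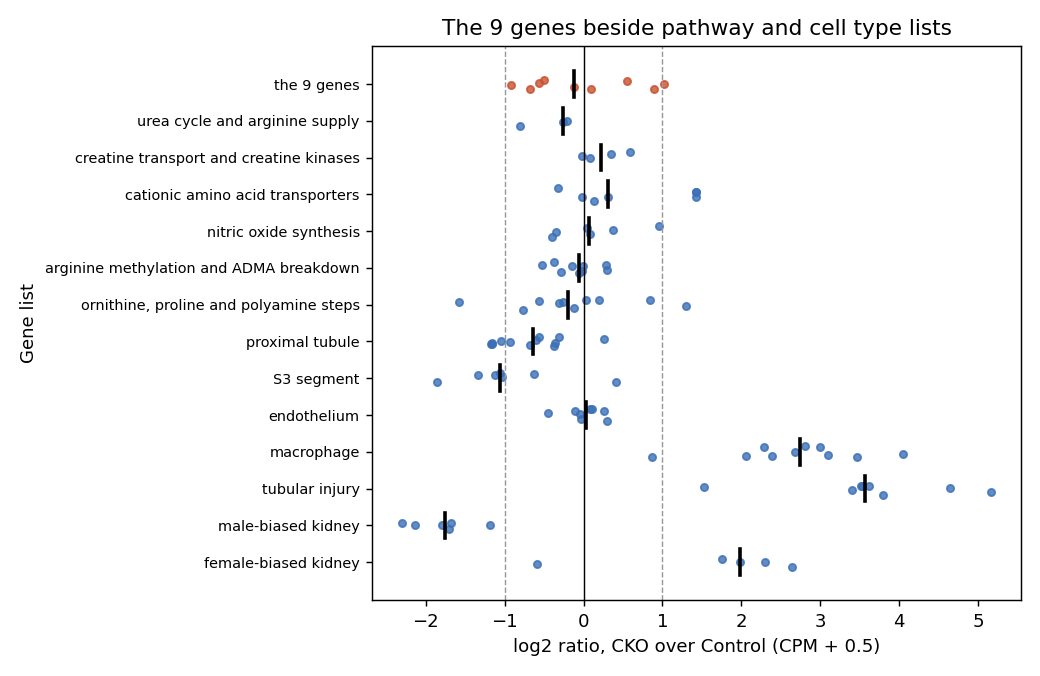
Log2 ratio of CKO over control for the expressed genes of each list (points) with the list's median (black bar), dashed lines at 2-fold and a small vertical scatter for legibility. The 9 genes run from -0.92 to 1.02 with a median of -0.12, and overlap the range of the proximal tubule list. The medians of the proximal tubule and macrophage lists are -0.65 and 2.74.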

How the data were processed

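RNA was measured in 2 libraries of whole mouse kidney, made with a stranded mRNA kit per the labels' protocols. For the build mm10, the tools listed in the submitters' processing notes are edgeR, DESeq2, FastQC, HTSeq, STAR 2.7.3a and Cufflinks 2.2.1, without their roles. The authors deposited raw read counts per gene, FPKM and TPM values per the file headers, and a normalized signal table in which each count is divided by 1 constant per library (30.1 and 42.6), for 19550 genes. From the counts, library sizes were scaled by TMM (edgeR 4.0.16, R 4.3.3; effective sizes 30.1 and 42.6 Mreads). Ratios are CKO over control, and log2 ratios use CPM + 0.5. Levels carry exact Poisson intervals, ratios intervals from the CKO share of reads (exact, Clopper-Pearson), and ratios between genes Woolf log odds intervals, all at 95%. The rest was computed in Python 3.11.15 with scipy 1.17.1, and the steps were tested on simulated counts. The self-test had 200 genes changed 4-fold, as many raised as lowered. In the real libraries higher genes outnumbered lower ones, so the self-test is no check of the scaling used here.

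The 9 genes and the 16 lists beside them were chosen with earlier results of these data known. Besides Inmt and the 9, the genes named were taken in each list from the 3 expressed genes with the largest absolute log2 ratio and the most abundant, with exceptions (genes not expressed, and others such as Slc5a12, Slc5a1 and Slc16a12) chosen after their values were seen. Of the 8 pairs, 5 were likewise chosen after their values were seen, as were the ranges of mean level. Coordinates are RefSeq GRCm38.p6, the assembly mm10 names. Alternatives are DESeq2 1.42.0 size factors, other scalings, units, pseudocounts and limits. Protein sequences were not used here.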

Additional observations from a re-analysis of the deposited data

How the results depend on the processing

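The median of the 9 genes, -0.12, was 0.18 with total counts, 0.066 when totals left out mitochondrial genes and the 50 most abundant, 0.29 with TPM and 0.18 with FPKM, and the log2 ratio of Gamt, the middle gene, took the same values. The median of all expressed genes was then 0.32, 0.21, 0.40 and 0.26. The number of members at least 2-fold higher, 1 in the main analysis, was 2 (Ddah2 and Arg2) under each of these 4 settings, and 0 with DESeq2 size factors and with a pseudocount of 2 CPM. With a 1.5-fold limit, 2 were higher and 2 (Gatm and Ddah1) lower. The share of all expressed genes past the limit was computed at 2-fold for the main and total-count scales only. The counts under the other settings therefore have no background beside them and cannot be read as a result about the members. Medians of the pathway lists also turned positive: arginine supply was 0.056 with total counts, 0.15 with TPM and 0.046 with FPKM, arginine methylation 0.24, 0.13 without the most abundant genes, 0.28 and 0.17, and the ornithine list 0.12, 0.00184, 0.23 and 0.12 in the same order. The other 8 members kept their direction under the 8 alternatives for scaling, unit and pseudocount. With TPM, however, Ass1 came close to 0 at -0.084 and Asl at -0.14. The authors' normalized table, among these alternatives, has nearly the same divisors as the TMM sizes, so its values could hardly differ. Adding the Gm5424 reads to Ass1 was chosen after seeing the data. The counting intervals of the Agmat and Gamt ratios include 1 with TMM, while that of Agmat with total counts (1.07 to 1.68) does not. No paired analysis was possible because each group has 1 library.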
